A study of Mus musculus with 23 samples.

Results

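Heat shock proteins and J-domain chaperones were taken as every gene symbol of the deposited tables that begins with Hspa to Hsph or Hsp90 and a family number, or with Dnaja, Dnajb or Dnajc and a number. The rule gave 73 genes out of 23481 symbols, which is 0.311%. By role they were 6 cytosolic Hsp70 proteins, 3 Hsp70 proteins of organelles, 5 Hsp110 and divergent Hsp70 proteins, 3 Hsp90 proteins, 2 subunits of the mitochondrial chaperonin, 8 small heat shock proteins and 45 J-domain proteins (4 of class A, 13 of class B and 28 of class C). The rule also took in Hspg2, which encodes perlecan, a matrix proteoglycan and not a chaperone. Hspb11, counted by its name with the small heat shock proteins, encodes a subunit of intraflagellar transport.

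The data were 23 RNA-seq libraries from olfactory epithelium of C57BL/6 mice at postnatal day 21, each made from the mRNA that came down with an anti-pS6 antibody, pS6 being the phosphorylated form of a ribosomal protein that marks recently active neurons. Mice were exposed for 1 h to acetophenone, to TMT (trimethylthiazoline, an odor of fox secretions) or to a control. The acetophenone experiment had 5 control libraries (litters 1 to 5), 3 at 1% odor (litters 3 to 5) and 3 at 100% odor (litters 1 to 3). The TMT experiment had 4 libraries each of control, 1% and 100%, from litters 1 to 4. All mice were of the same strain and age, no genotype other than the strain is labelled, and what the control mice inhaled is not described in the labels. Every library is a pull-down without a matched input, so a level here joins how much of an RNA the tissue holds and how much of it sat on pS6-bearing ribosomes.

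Hsp70 proteins bind unfolded stretches of protein and release them in a cycle driven by ATP. J-domain proteins bring them clients and speed ATP hydrolysis, and Hsp110 proteins act as exchange factors that reset the cycle. Hsp90 works later, on nearly folded clients, the chaperonin of mitochondria encloses proteins in a chamber, and small heat shock proteins hold unfolded proteins without using ATP. Heat and other stress induce part of these genes through heat shock factors, and a load of unfolded protein in the endoplasmic reticulum (ER) induces the ER members through the unfolded protein response. Olfactory neurons pass large amounts of odorant receptor protein through the ER, so ER chaperones are of interest in this tissue.

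Promoter sequences from RefSeq (build GRCm38.p6) were at hand for 59 of the 73 members, and the 250 bases before each start site were searched on both strands for 3 motifs. The ER stress element, read as CCAAT, any 9 bases and CCACG, occurred upstream of 3 members, Hspa5, Hsp90b1 and Dnajc3, which is 5.08% of the members searched against 0.13% of 27025 genes with a promoter. These 3 are shown because their RNA is followed below, with the matches in capitals. Hspa5 encodes the ER Hsp70 (BiP), Hsp90b1 the ER Hsp90 (GRP94) and Dnajc3 an ER J-domain protein (p58IPK).
Hspa5, chr2:34771840-34772089, plus strand: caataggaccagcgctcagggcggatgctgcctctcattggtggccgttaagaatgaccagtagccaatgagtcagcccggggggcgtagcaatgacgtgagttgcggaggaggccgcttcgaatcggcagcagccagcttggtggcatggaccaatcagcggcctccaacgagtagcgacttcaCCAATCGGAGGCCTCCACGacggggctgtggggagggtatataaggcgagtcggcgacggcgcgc
Hsp90b1, chr10:86705445-86705694, minus strand: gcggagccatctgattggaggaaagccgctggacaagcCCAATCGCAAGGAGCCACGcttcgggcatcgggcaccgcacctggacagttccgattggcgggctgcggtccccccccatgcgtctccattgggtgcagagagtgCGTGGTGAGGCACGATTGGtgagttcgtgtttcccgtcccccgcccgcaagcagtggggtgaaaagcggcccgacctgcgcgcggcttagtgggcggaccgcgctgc
Dnajc3, chr14:118937682-118937931, plus strand: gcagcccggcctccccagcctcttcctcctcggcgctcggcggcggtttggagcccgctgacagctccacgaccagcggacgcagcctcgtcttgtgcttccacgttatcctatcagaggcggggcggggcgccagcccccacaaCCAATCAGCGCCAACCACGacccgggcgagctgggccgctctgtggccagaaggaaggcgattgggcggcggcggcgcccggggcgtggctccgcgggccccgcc

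The heat shock element, read as GAA, TTC and GAA or as TTC, GAA and TTC with any 2 bases between the units, occurred upstream of Dnajb6, Hspd1 and Hspe1, again 5.08% of members against 0.514% of all genes. Hspd1 and Hspe1, the subunits of the mitochondrial chaperonin, lie head to head, and their windows hold the same pair of overlapping matches. The Hspd1 window is shown because the RNAs of this gene pair are compared below.
Hspd1, chr1:55087933-55088182, minus strand: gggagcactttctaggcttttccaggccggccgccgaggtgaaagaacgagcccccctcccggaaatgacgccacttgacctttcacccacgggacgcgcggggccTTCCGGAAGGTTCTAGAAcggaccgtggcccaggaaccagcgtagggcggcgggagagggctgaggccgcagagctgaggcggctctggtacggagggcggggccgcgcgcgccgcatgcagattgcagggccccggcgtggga

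The motif TGATGNAAN, the core of a C/EBP-ATF response element, occurred upstream of 1 member, Hspa14, which is 1.69% of members against 3.89% of all genes. A match describes the letters in these windows and nothing more.

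Unique counts summed to 2118099 to 9526932 per library, and the members took 0.445 to 0.945% of them. Many chaperone genes have near-identical processed copies in the genome, and reads from them align to several places. For 14 members the unique counts were under 50% of the deposited estimated counts, which share out such reads. The share was 0.16% for Dnaja1, 0.185% for Hsp90aa1, 0.823% for Hspd1, 0.926% for Hspb1, 2.23% for Hspa8, 3.72% for Hspe1, 9.43% for Hspa1a and 10.9% for Hspa1b. Levels of these genes are therefore given from the estimated counts, and how that sharing assigned reads between a gene and its copies could not be checked. In 51 members at least 95% of the estimated counts were unique. Hspa9 stood between, at 55%. The deposited values do not say whether counting used strand, and 23 members share exon bases with another annotated gene, among them Dnajc14 (25.5% of its exon bases, with Ormdl2) and Hsp90b1 (14.7%, with a pseudogene on the opposite strand). None of the 6 members that passed a test below is in that group. In GENCODE M21 (GRCm38, the build named for the data) Hspa5 spans chr2:34771970-34777547 on the plus strand, Hspa4l chr3:40744495-40796103 on the plus strand, Hsph1 chr5:149614287-149636376 on the minus strand, Dnajc5 chr2:181520485-181555133 on the plus strand and Dnajc21 chr15:10446756-10470516 on the minus strand.

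Levels are given as CPM, counts scaled to a common library total by TMM, a method that sets most genes equal between libraries. Per kilobase of the longest coding transcript, Hspa8, the constitutive cytosolic Hsp70, had the highest level in acetophenone controls, at 1610 ± 161 estimated-count CPM per kb (SD, n = 5), followed by the cytosolic Hsp90 gene Hsp90ab1 at 1140 ± 115. Hsp90b1 came next at 186 ± 71.4, and its range of 91.1 to 277 overlapped that of Hsp90aa1, the inducible cytosolic Hsp90 (170 ± 84.9, 78.3 to 306). Hspa5 stood at 95 ± 19.0, and Dnaja1, a cytosolic J-domain partner of Hspa8, at 84.9 ± 28.3. Hspa8 and Hsp90ab1 also led in TMT controls, at 1720 ± 252 and 869 ± 241 (n = 4), where Hspe1, at 192 ± 60.9, ranked 3rd and Hsp90b1, at 27.1 ± 3.64, ranked 21st. The stress-induced Hsp70 genes were low. Hspa1a lay between 0 and 37.0 estimated-count CPM over the 23 libraries, and Hspa1b had 3 unique counts in all, in 2 libraries. Dnajc5g had a count of 0 in every library, where the limit that a count of 0 allows is 3 counts per library.

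With 100% TMT, 6 members were higher than in controls of the same litter and none was lower. They were Hspa9, the Hsp70 of mitochondria (mortalin), Hspa5, the Hsp110-type proteins Hspa4l and Hsph1, and the J-domain proteins Dnajc5 (cysteine string protein, which works at synaptic vesicles) and Dnajc21 (a partner in ribosome assembly). Their folds ran from 2.23 for Dnajc21 to 7.60 for Hspa4l. The test was edgeR's quasi-likelihood test with litter as a block and Benjamini-Hochberg adjustment at 0.05, over the 59 members and 13233 genes that passed a filter on low counts. Over all genes 1.84% passed as higher and 0.529% as lower. At an unadjusted p under 0.05, 16 members were higher, 27.1% of the 59, against 11.4% of all genes, and 2 were lower, against 8.19%. The 16 include Hspa13, which had unique counts of 1, 0, 2 and 0 in the controls. It passed the filter only through exposed libraries, so it could hardly have come out as lower. The median log2 fold change was 0.19 over the 59 members and 0.02 over all genes tested, and 35 members had a positive value. The filter keeps a gene that is well counted in a single group, so the 14 members it left out are not part of these numbers.

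Without the litter block, edgeR passed none of the 59 members and 0% of all genes, while at an unadjusted p under 0.05 it gave 14 higher and 0 lower members, against 8.33% and 6.36% of all genes. A DESeq2 Wald test without the block passed 6 members, all higher, against 2.33% of all genes higher and 1.32% lower. Within litters it passed 13 members, all higher, against 6.94% of all genes higher and 3.43% lower. The labels name the litter of each library but not how many mice it held. With the litter block, p-values measure how far the group differences vary from litter to litter. Without it, they measure the spread between the libraries of a group, which come from different litters.

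Of the 3 Hsp70 proteins of organelles, Hspa9 and Hspa5 passed with 100% TMT, and the third, Hspa13, had too few counts to be read. Hspa9 was at 18.4, 11.1, 9.52 and 21.5 CPM in the controls of litters 1 to 4, at 50.3, 15.8, 11.7 and 27.4 with 1% TMT, and at 56.7, 39.5, 39.0 and 80.0 with 100% TMT. All 4 libraries at 100% lay above all 4 controls, and the 1% library of litter 1 lay within the range at 100%. The log2 fold change at 100% was 1.92 (SE 0.30, edgeR adjusted p = 0.0196), and it was 1.94 (adjusted p = 0.0141) from the estimated counts. Hspa5 was at 182, 227, 246 and 266 CPM in controls, at 479, 211, 288 and 328 with 1% TMT, and at 470, 500, 418 and 727 with 100% TMT. Again no library at 100% overlapped the controls, while those at 1% did. The log2 fold change at 100% was 1.24 (SE 0.24, edgeR adjusted p = 0.0293), higher in 4 of 4 litters. Hspa13, an Hsp70 of the ER lumen, had unique counts of 1, 0, 2 and 0 in the TMT controls and 8, 16, 0 and 138 at 100% TMT. Most of its counts came from 1 library, in litter 3 the control had the higher count, and it did not pass.

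Hsp110 and divergent Hsp70 proteins had positive values in 4 of 4 members tested, against 51% of all genes. Their median log2 fold change was 1.45, against 0.02 over all genes, and 2 passed, against 1.84% of all genes as higher. The 2 that passed help set that median, so it is no separate result. Hspa4l, an Hsp110 protein that is abundant in testis and present in neurons, had the largest fold of the 6. It was at 6.22, 3.60, 2.42 and 8.17 CPM in controls, 80.0, 6.95, 12.4 and 16 with 1% TMT, and 77.9, 18.2, 14.5 and 66.8 with 100% TMT. Each exposed library was above the control of its litter, and the levels at 100% fell into a high pair (litters 1 and 4) and a low pair (litters 2 and 3). Its log2 fold change at 100% was 2.93 (SE 0.47, edgeR adjusted p = 0.0196). Hsph1, the stress-induced Hsp110 of the cytosol, was at 89.0, 8.23, 26.0 and 16.9 CPM in controls, 119, 19.2, 38.7 and 83.5 with 1% TMT, and 121, 59.3, 117 and 119 with 100% TMT. The control of litter 1 was above the 100% library of litter 2, so the groups overlapped. In every litter the control had the lowest value and 100% TMT the highest. The log2 fold change at 100% was 2.11 (SE 0.40, edgeR adjusted p = 0.0284) within litters and 1.62 (adjusted p = 0.292) without the block.

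Of the J-domain proteins, 39 of 45 were tested, 23 had positive values, 2 passed and none passed as lower. Of all genes, 1.84% passed as higher and 0.529% as lower. Dnajc5 was at 353, 97.0, 250 and 281 CPM in controls, 509, 342, 353 and 431 with 1% TMT, and 470, 441, 594 and 592 with 100% TMT. Every library at 100% was above every control, and at 1% every litter was above its own control. The log2 fold change at 100% was 1.26 (SE 0.24, edgeR adjusted p = 0.0293). Dnajc21 was at 67.5, 30.2, 80.1 and 66.1 CPM in controls, 125, 70.3, 62.9 and 112 with 1% TMT, and 105, 102, 121 and 179 with 100% TMT. At 100% the groups did not overlap, and the log2 fold change was 1.15 (SE 0.27, edgeR adjusted p = 0.0482), the value nearest to the threshold. At an unadjusted p under 0.05, 9 of the 39 were higher and 1 was lower, against 11.4% and 8.19% of all genes. The median log2 fold change was 0.17 over the 39, against 0.02 over all genes tested, and by class it was 0.35 for class A, 0.14 for class B and 0.11 for class C. The 1 J-domain member below 0 at an unadjusted p under 0.05 was Dnajc14, a protein of the ER membrane, at -0.48 (edgeR adjusted p = 0.223), a gene that shares exon bases with Ormdl2.

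**Figure D1:**
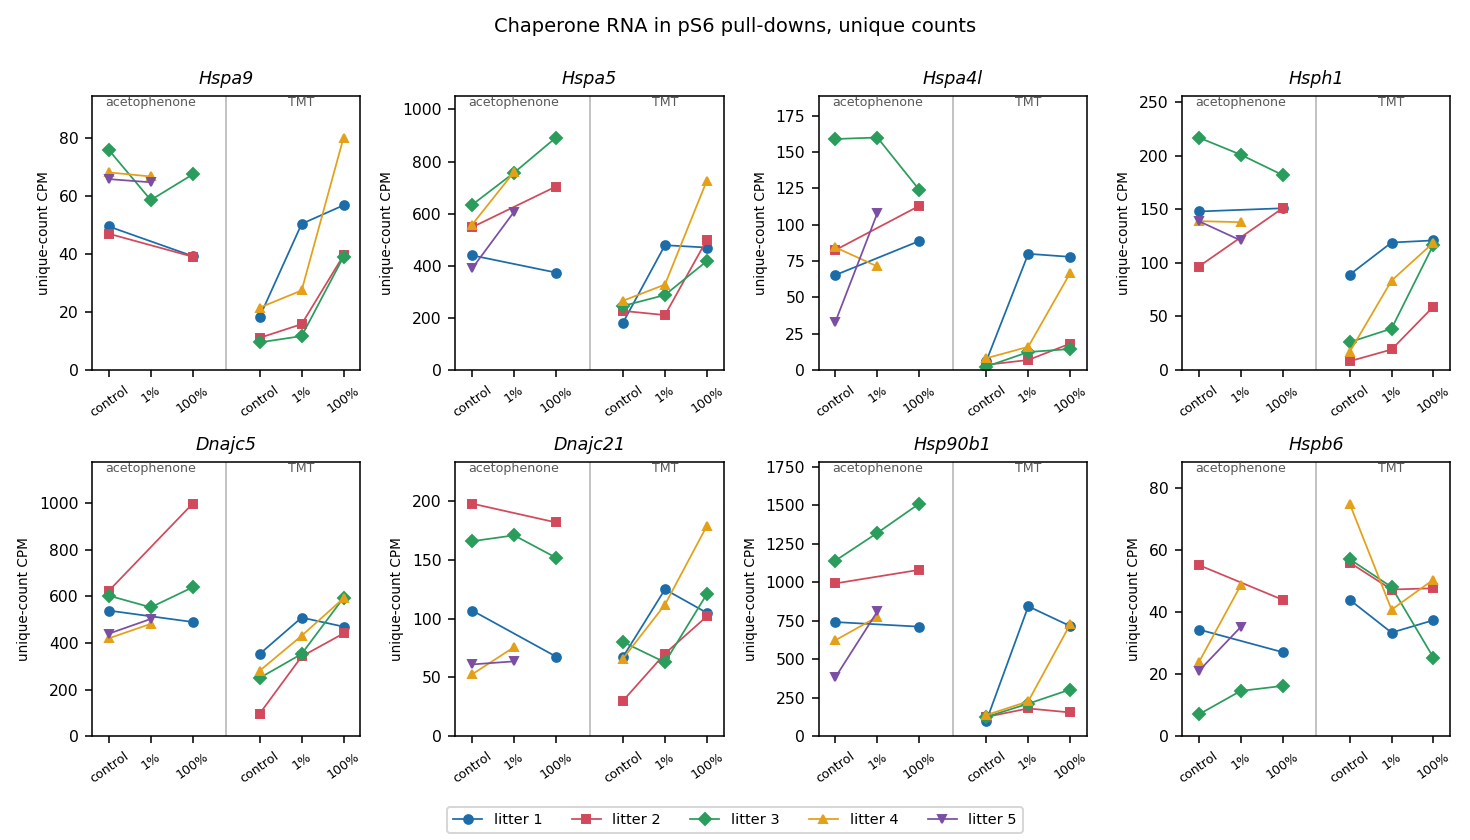
Unique-count CPM (y axis, from 0) of 8 chaperone genes in each library, by odor and dose (x axis), with a line joining the libraries of a litter. In TMT controls Hspa4l lies at 2.42 to 8.17 CPM and with 100% TMT at 14.5 to 77.9, while in acetophenone controls it lies at 33.3 to 159.

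The genes whose upstream windows hold the ER stress element can be set side by side. They were picked for that sequence with the fold changes already known. Hspa5 passed the test, as above. Hsp90b1 was at 98.4, 125, 125 and 137 CPM in TMT controls, 843, 180, 211 and 226 with 1% TMT, and 715, 154, 303 and 726 with 100% TMT. No exposed library overlapped the controls, but the spread at 100% was wide, and its value of 1.71 on the log2 scale (SE 0.44) did not pass (edgeR adjusted p = 0.063). Dnajc3 was at 127, 169, 116 and 304 CPM in controls, and 241, 358, 283 and 402 with 100% TMT, each above the control of its litter, and its log2 fold change was 0.95 (SE 0.25, edgeR adjusted p = 0.0659). A group of 8 members that work in the ER was formed after the values were seen. It held Hspa5, Hspa13, Hsp90b1, Dnajb9, Dnajb11, Dnajc1, Dnajc3 and Dnajc10. Dnajc14, the protein of the ER membrane at -0.48, was left out, so the group does not hold every ER member. Of the 8, 7 had positive values and 1, Hspa5, passed, against 1.84% of all genes. At an unadjusted p under 0.05, 6 were higher, against 11.4% of all genes, and the sparsely counted Hspa13 is 1 of them. As the group was formed with these values known, its counts are a description and no test. The values of Hspa5, Hsp90b1 and Dnajc3 corrected for GC content and length, all lower, are given below. Of 21 other genes of ER stress and ER folding tested, 16 were positive and none passed. Their median log2 fold change was 0.18, and at an unadjusted p under 0.05 there were 6 higher and 2 lower. The difference between these 2 groups of genes was not tested.

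No cytosolic Hsp70 gene and no small heat shock protein passed with 100% TMT. Of the 5 cytosolic Hsp70 genes tested on unique counts 1 was positive, and with estimated counts 0 of 5 were positive, with a median of -0.27. Hspa8 was at 3960, 3390, 4830 and 4270 estimated-count CPM in TMT controls and 3410, 3780, 4630 and 3460 at 100%, so the ranges overlapped throughout. Hspa1a was at 15.6, 22.7, 19.1 and 15.8 in controls and 9.12, 14.5, 37.0 and 8.21 at 100%, and Hspa1b was listed at 0 in all 12 TMT libraries. Dnajb1, the J-domain partner that heat shock factors induce, was at 58.2 to 73.3 unique-count CPM in controls and 43.2 to 86.2 at 100%. Hspb6, a small heat shock protein of muscle, was at 44.0, 56.0, 57.1 and 75 CPM in controls and 37.4, 47.7, 25.3 and 50.5 at 100%. Its control and exposed ranges overlapped, and its log2 fold change of -0.47 (SE 0.24) did not pass (edgeR adjusted p = 0.311). Of the 4 members tested that are small heat shock proteins by name, 1 was positive and the median was -0.48. Hspb11, at -0.49, is among these 4.

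Estimated counts brought 63 members into the 100% TMT comparison, and the same 6 passed, with 2.31% of all genes higher and 1.02% lower. Hsp90aa1, chosen here after its values were seen, was at 129, 32.4, 116 and 110 estimated-count CPM in controls and 267, 152, 174 and 391 at 100% TMT. The groups did not overlap, and the log2 fold change of 1.41 (SE 0.35) did not pass (edgeR adjusted p = 0.0541). Its constitutive counterpart Hsp90ab1 was at 1620 to 2860 unique-count CPM in controls and 2150 to 2630 at 100%, within the range of the controls. The chaperonin subunits, whose genes lie head to head, had values of opposite sign. Hspd1 was at 17.0, 38.1, 28.1 and 29.8 estimated-count CPM in controls and 97.8, 33.9, 24.1 and 144 at 100%, high in litters 1 and 4. Hspe1 was at 96.7, 170, 203 and 126 in controls and 78.5, 149, 110 and 73.4 at 100%, below the control in every litter. Their log2 fold changes were 1.04 (edgeR adjusted p = 0.308) and -0.56 (adjusted p = 0.17), and neither passed. The difference between them was not tested.

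**Figure D2:**
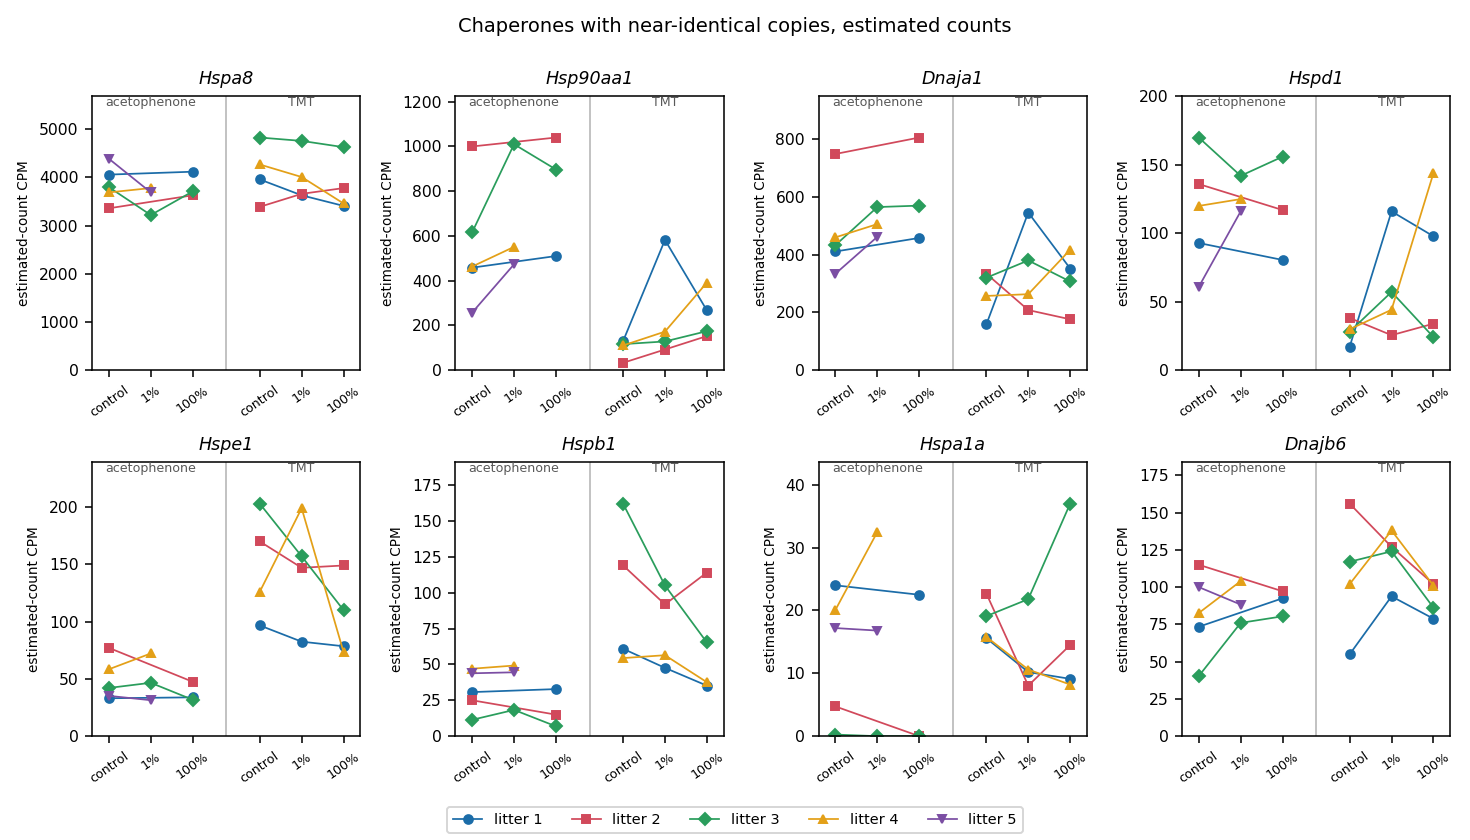
Estimated-count CPM (y axis, from 0) of 8 chaperone genes with near-identical copies, in each library by odor and dose (x axis), with a line joining the libraries of a litter. In the TMT libraries the 3 highest values of Hspd1 (97.8 to 144) go with Hspe1 at 73.4 to 82.5, and Hspa8 lies between 3390 and 4830.

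The 6 genes that passed had transcripts of low to middling GC content, and fold change fell with GC content over all genes. Hspa4l was at 39.5% GC, Hspa5 at 45.6%, Hspa9 at 45.9%, Dnajc21 at 46.7%, Hsph1 at 47.4% and Dnajc5 at 48.9%, against a median of 50.7% over all genes tested. Across 13115 genes, which are not independent replicates, the Spearman correlation of GC content with the log2 fold change at 100% TMT was -0.45. The median log2 fold change was 0.81 in genes of 37.5 to 40% GC and -0.33 in genes of 57.5 to 60%. With each library corrected for GC content and transcript length, within litters, Hspa4l (2.08, edgeR adjusted p = 0.0303), Hsph1 (1.73, adjusted p = 0.0422), Hspa9 (1.31, adjusted p = 0.0461) and Dnajc5 (1.12, adjusted p = 0.036) still passed. Hspa5 fell to 0.58 (adjusted p = 0.192) and Dnajc21 to 0.68 (adjusted p = 0.15), and neither passed. Hsp90b1 was then at 0.90 (adjusted p = 0.268) and Dnajc3 at 0.10 (adjusted p = 0.898). Hspb11, a subunit of intraflagellar transport despite its name, passed as lower, at -1.30 (adjusted p = 0.0282). Over the 59 members the median was then 0.03, against -0.04 over all genes, and over the 39 J-domain proteins it was -0.03. Before adjustment, p lay under 0.05 for 4 J-domain genes with a positive value and 6 with a negative one. Of all 13233 genes in that fit, 1024 and 1236 did so. In that fit 0.725% of all genes passed as higher and 1.07% as lower, so the share of higher genes among those that passed went from 77.7% to 40.5%.

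**Figure D3:**
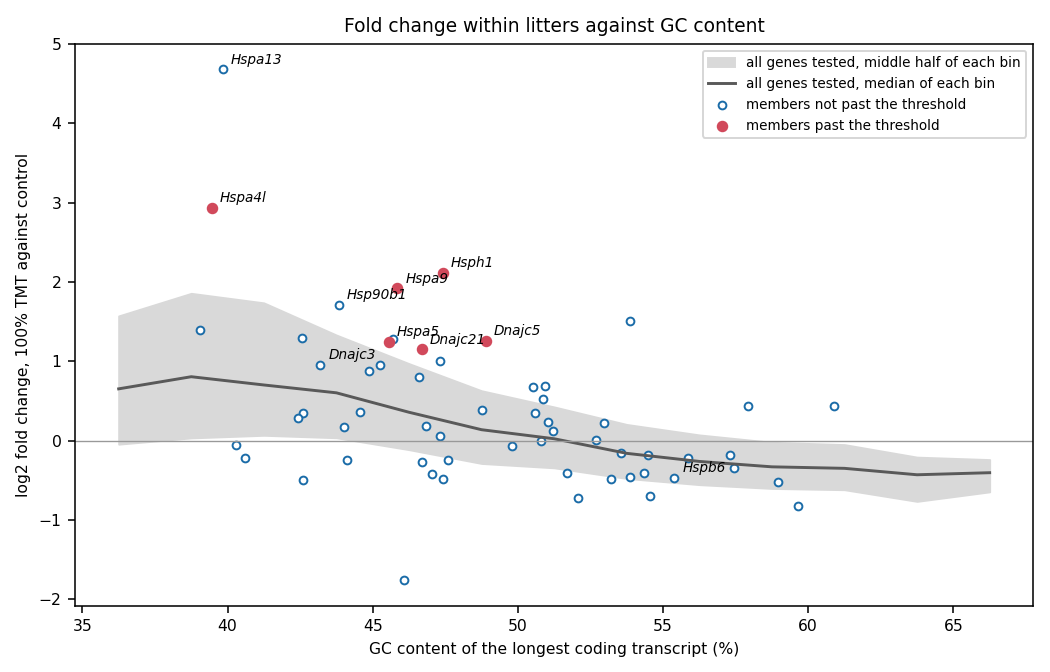
Log2 fold change of 100% TMT against control within litters (y axis) against the GC content of the longest coding transcript (x axis), for all genes tested as the median and the middle 50% of each bin, and for the 59 members as points. The members that passed the test, in red, were picked by their fold change in this same fit. Their place above the median of genes of like GC content is therefore no test. That median itself falls from 0.81 to -0.43.

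The result rests on few litters. Without litter 1, whose libraries belong to another code series in the titles than those of litters 2 to 4, 6 members passed, 5 of them the same (Dnajc21 was replaced by Dnajc10). Without litter 2 or without litter 3 none passed, and without litter 4 only Dnajc3 did. The loss was not particular to the members. Over all genes, 179 of 13135 passed without litter 1 and 1 of 13308 without litter 2. Without litter 3 it was 0 of 13393, and without litter 4 it was 17 of 13179. Over these 4 fits the log2 fold changes lay between 2.73 and 3.12 for Hspa4l, 1.86 and 1.97 for Hspa9, 1.83 and 2.63 for Hsph1, and 1.10 and 1.37 for Hspa5. Those of the J-domain genes lay between 0.99 and 1.52 for Dnajc5 and between 0.95 and 1.36 for Dnajc21. With the 1% libraries left out of the fit, Hspa4l, Hspa5 and Hspa9 still passed, against 0.238% of all genes. Hsph1 (2.16, edgeR adjusted p = 0.0765), Dnajc5 (1.31, adjusted p = 0.0765) and Dnajc21 (1.19, adjusted p = 0.0795) then did not.

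Cell markers moved in the same comparison. The epithelium was recognisable in every library, with summed CPM of 10 mature olfactory neuron markers between 1710 and 6680 and none of them at 0 throughout a group. The summed CPM of 5 sustentacular (supporting) cell markers was 1950 to 3590 in TMT controls and 3680 to 4500 at 100% TMT, and all 5 were higher at an unadjusted p under 0.05, with Ugt2a1 passing (log2 fold change 2.40, edgeR adjusted p = 0.0309). The sum of 6 immature neuron markers was 1990 to 2930 in controls and 1270 to 2100 at 100%, and Tubb3 passed as lower (-1.10, adjusted p = 0.00603). Mature neuron markers summed to 1710 to 3210 and 2920 to 4010, with none passing. Red cell markers summed to 3740 to 7270 and 1570 to 4870, and skeletal muscle markers, with Myh2 and Myh4 at 0 in the 100% group, to 59.2 to 96.6 and 29.8 to 62.9. In such libraries a change in the number of cells of a type and a change in RNA per cell cannot be told apart, and the part of these markers in the chaperone values was not tested. Lists for horizontal basal, motile ciliated, smooth muscle, endothelial and immune cells and for immediate early genes held no gene that passed. Nor did 36 co-chaperones and heat shock factors, of which 14 were positive with a median of -0.14 (with an unadjusted p under 0.05, 3 higher and 7 lower), or 14 subunits of the cytosolic chaperonin and prefoldin, of which 10 were positive with a median of 0.17.

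With 1% TMT no member passed the edgeR test within litters (0.00756% of all genes did) or without the block (0%). With an unadjusted p under 0.05, 9 members were higher and 1 was lower within litters, against 4.9% and 2.26% of all genes, and without the block 3 were higher and none lower, against 2.94% and 1.35%. A DESeq2 Wald test passed 2 members within litters as higher, Dnajc5 and Hspa4l, against 0.476% of all genes higher and 0.0529% lower, and 0 members without the block, against 0.0302% of all genes. The smallest p-values were those of Hspa4l (log2 fold change 2.08, SE 0.47, edgeR adjusted p = 0.577), Dnajc5 (0.85, SE 0.24), Dnaja2, a cytosolic J-domain partner of Hsp70 (0.40, SE 0.14), and Hsp90b1 (1.25, SE 0.43), the last 3 with an adjusted p of 0.689. All 4 were higher in 4 of 4 litters. In Hspa4l and Hsp90b1 litter 1 stood far above the others, and without it the log2 fold changes were the lowest of the fits that left out 1 litter, at 1.46 and 0.65. These libraries share their controls with those at 100%.

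With 100% and 1% TMT set directly against each other, no member passed the edgeR test (0% of all genes passed within litters, and 0% without the block). Within litters 8 members were higher at 100% and 2 lower at an unadjusted p under 0.05, against 4.28% and 3.79% of all genes, and without the block 7 and 1, against 2.22% and 3.05%. DESeq2 passed 1 member within litters as higher, Hspa9, against 0.401% of all genes higher and 0.333% lower, and 0 members without the block. Hspa9 had the smallest p, with a log2 difference of 1.21 (SE 0.30, edgeR adjusted p = 0.468), followed by Hspa5 at 0.74 (SE 0.24, adjusted p = 0.544), Hsph1 at 1.02 (SE 0.38, adjusted p = 0.566) and Dnajc3 at 0.64 (SE 0.25, adjusted p = 0.583). Hspa9, Hsph1 and Dnajc3 were higher at 100% in 4 of 4 litters and Hspa5 in 3.

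With acetophenone no member passed at either dose. At 100%, 54 members were tested, 27 of them were positive, the median log2 fold change was 0.02 and none had an unadjusted p under 0.05, against 5.27% of all genes. Over all genes 0.0951% passed the edgeR test within litters and 0% without the block, and DESeq2 passed 0 members in both fits, against 0.329% of all genes higher and 0.00865% lower within litters and 0.0432% higher without the block. Without the block 0.415% of all genes were higher at an unadjusted p under 0.05, and no member. Hspa9 was at 49.4, 46.9 and 75.7 CPM in the controls of litters 1 to 3 and at 39.2, 39.0 and 67.3 with 100% acetophenone, lower in every litter by less than the spread between litters. Hspa4l was at 65.4, 82.6 and 159 CPM in the same controls and 88.8, 113 and 124 with odor, and the groups overlapped. Hspa5 was at 440, 548 and 634 CPM and at 374, 704 and 892, which overlapped too. The smallest p-values belonged to Hspa2, a Hsp70 of the germ line (-0.43, SE 0.21), Hspa12b, a divergent Hsp70 of endothelium (1.23, SE 0.61), Hspa1l (0.81, SE 0.43) and Dnajc21 (-0.31, SE 0.19), each with an edgeR adjusted p of 0.897.

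At 1% acetophenone, again with 54 members tested, 5 were higher and 1 was lower with an unadjusted p under 0.05 within litters, against 4.81% and 3.7% of all genes, and 0 without the block, against 0.414% and 0.356%. The edgeR test passed 0.00828% of all genes within litters and 0% without the block, and DESeq2 passed 0 members in both, against 0.182% of all genes higher and 0.224% lower within litters. Hspb6 was at 7.01, 23.8 and 21.0 CPM in the controls of litters 3 to 5 and 14.6, 48.6 and 35.2 with odor. It was higher in each litter, but the log2 fold change of 0.94 (SE 0.22) did not pass (edgeR adjusted p = 0.353). Skeletal muscle markers summed to 274 and 357 CPM in the odor libraries of litters 3 and 4 against 44.7 and 41.3 in their controls, and to 42.5 against 70.2 in litter 5, and their part in the Hspb6 values was not tested. Dnajc2, a J-domain protein of the ribosome, was at 0.69 (SE 0.22, adjusted p = 0.446), Hspa5 at 0.46 (SE 0.14, adjusted p = 0.447) and Dnajc11, of the mitochondrial inner membrane complex, at -0.51 (SE 0.18, adjusted p = 0.499).

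**Figure D4:**
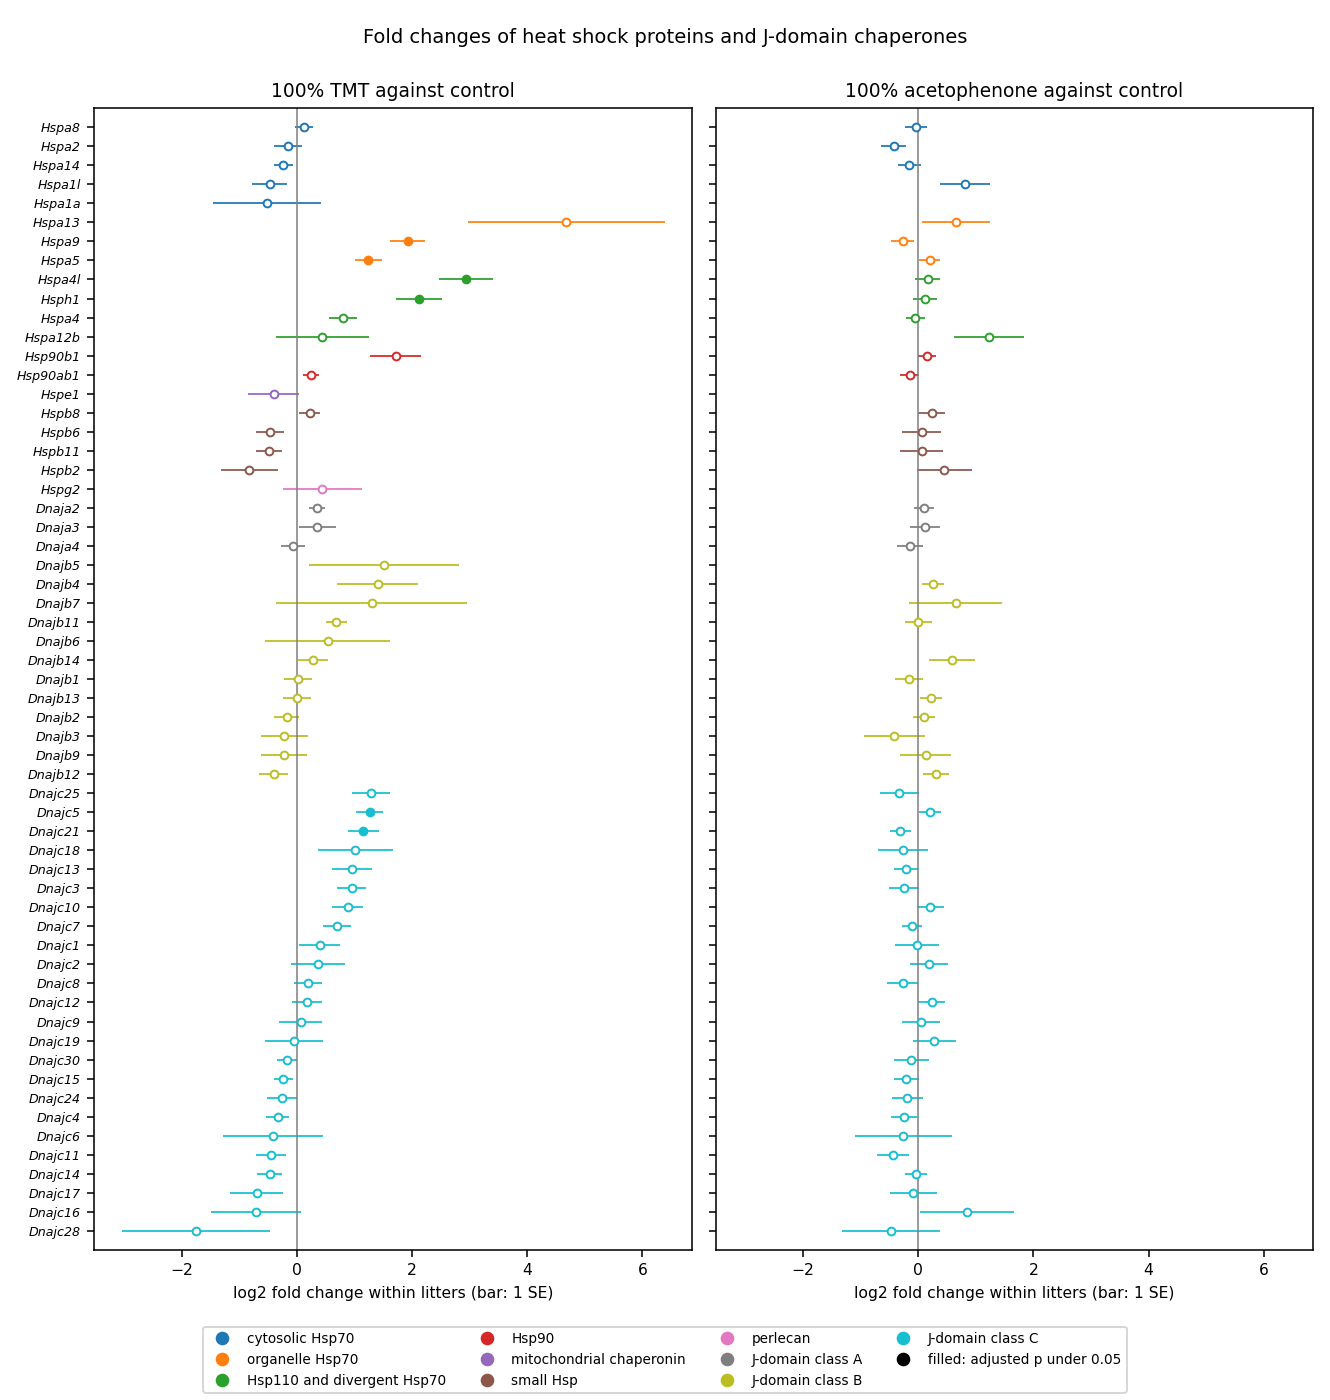
Log2 fold change within litters (x axis, bars 1 SE) of the 59 members tested with TMT, ordered by role (y axis, colours), at 100% TMT (left) and 100% acetophenone (right, for those tested there). Filled points passed an adjusted p of 0.05, which 6 members did with TMT and none with acetophenone.

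The responses to the 2 undiluted odors were compared directly, each against the controls of its own litters. Of 57 members tested, Hspa4l and Hspa9 had a larger response to TMT within litters, with log2 differences of 2.79 (SE 0.39) and 2.14 (SE 0.31), both with an edgeR adjusted p of 0.0484. Over all genes 0.0691% passed, 9 in all, and 0% without the block, where 6 members were higher at an unadjusted p under 0.05, against 4.25% of all genes, and DESeq2 passed no member and 0.0767% of all genes as higher. Dnajc21 at 1.45 (SE 0.35, edgeR adjusted p = 0.17) and Hspa5 at 1.02 (SE 0.27, adjusted p = 0.197) came next and did not pass. Both calls were near the threshold, and odor and experiment cannot be told apart in this comparison. With the correction for GC content and length the values were 2.06 (adjusted p = 0.233) for Hspa4l and 1.59 (adjusted p = 0.219) for Hspa9, and leaving out any 1 of the 3 acetophenone litters, or TMT litter 4, left none that passed.

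The same genes stood at other levels in the controls of the acetophenone and the TMT experiment. Hspa4l was at 33.3 to 159 CPM in the 5 acetophenone controls and 2.42 to 8.17 in the 4 TMT controls. Hspa9 was at 46.9 to 75.7 and 9.52 to 21.5, Hsp90b1 at 383 to 1140 and 98.4 to 137, Hsph1 at 96.6 to 217 and 8.23 to 89.0, and Hspa5 at 390 to 634 and 182 to 266. None of these ranges overlapped between the experiments. The genes were picked with their values known, and the share of all genes without such overlap was not computed. Of the other members that passed with 100% TMT, Dnajc5 did not overlap (420 to 624 and 97.0 to 353). Dnajc21 did (52.7 to 198 and 30.2 to 80.1). With estimated counts Hsp90aa1 was at 257 to 1000 and 32.4 to 129 CPM, and Hspd1 at 60.8 to 170 and 17.0 to 38.1, again without overlap. Hspe1 and Hspb1, a small heat shock protein of the cytosol, lay the other way, at 33.1 to 77.1 against 96.7 to 203 and at 11.4 to 47.0 against 54.4 to 162. Hspa8 did not follow, at 3360 to 4390 against 3390 to 4830. Experiment, litters and library preparation cannot be told apart in this contrast, and it was not tested. In the same controls the sustentacular markers summed to 4910 to 6250 and 1950 to 3590 CPM, and the mature neuron markers to 3490 to 6270 and 1710 to 3210. With 100% TMT, Hspa5 (418 to 727 CPM) and Dnajc5 (441 to 594) lay within or above their acetophenone control ranges in every library. Hsph1 lay within its range in all litters but litter 2. Hspa9, Hsp90b1 and Hspa4l lay within or above theirs in litters 1 and 4 only.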

How the data were processed

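Gene tables were made by the authors with Bowtie and bedtools on mm10, per the submitters' processing notes. Which annotation and tool versions the authors used was not given in the sources used here. A deposited table holds 20 value columns and no header. From its values, the first of these deposited columns was read as the authors' whole-number counts of reads that align to 1 place. The last of the deposited columns was read as the authors' estimated counts, which also share out reads with several alignments, and was rounded here. Columns between them were not used. Limits from a count of 0 cover counting error only, since no molecular identifiers were used to tell copies of a read apart.

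Tests used edgeR 4.0.16 (R 4.3.3): TMM, filterByExpr with a minimum count of 10, the 2-sided quasi-likelihood F test and Benjamini-Hochberg adjustment over all genes at 0.05, without and with litter as a block. DESeq2 1.42.0 was the alternative tool. An SE is the log2 fold change divided by the square root of F. Acetophenone doses were each fitted with same-litter controls only, and all 12 TMT libraries shared a fit. The GC and length correction fitted splines per library to genes with a mean count of at least 20 (annotation found for 23112 genes). The fits were also run on counts simulated with litter differences but no trend with GC content, unlike the TMT libraries. The outcome is not used for any call above.

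Litters named in the labels pair libraries across groups. In deviations from group means, same-litter libraries correlated over genes at 0.57 to 0.80 (100% acetophenone), 0.72 to 0.89 (1%), 0.04 to 0.29 (100% TMT) and 0.02 to 0.34 (1% TMT). The highest correlation with another litter was above the same-litter value in litter 3 at 100% TMT (0.052 against 0.044). At 1% TMT it was above in litter 3 (0.133 against 0.017) and litter 4 (0.065 against 0.019). Between 100% and 1% TMT, same-litter values were -0.046 to 0.385. There the correlation with another litter was above in litter 4 (0.29 against -0.046). Fold changes and tests are printed for members past the threshold in either fit, the 4 members with the smallest within-litter p in each comparison, and Hspa9, Hspa4l and Hspb6 with 100% TMT. Members and lists were chosen with earlier results of these data known.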

Additional observations from a re-analysis of the deposited data

Results flagged for a closer look

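In 92 groups of 4 or 5 libraries, over 25 members, the highest or lowest unique-count CPM was checked against the spread of the others, and 9 groups had a library that stood apart by Dixon's criterion. Chance gives about 1 such group in 20. In litter 1 at 1% TMT, Hspa4l was at 80.0 against 6.95 to 16 in the other litters and Hsp90b1 at 843 against 180 to 226. In litter 2 at 100% TMT, Hspa2 was high, at 65.8 against 41.9 to 45.9, and Hsph1 low, at 59.3 against 117 to 121. In litter 3 at 100% TMT, Hspa1a was at 7.43 against 0.767 to 1.54, Hspa8 at 194 against 131 to 141 and Hsp90ab1 at 2630 against 2150 to 2220. Unique counts are a small share of the reads of Hspa1a and Hspa8, and from estimated counts Hspa8 was at 4630 in that library, within the range of 3390 to 4830 of the TMT controls. In the TMT control of litter 2, Dnajb1 was at 73.3 against 58.2 to 60.5. In the acetophenone control of litter 3, Hspa1a was at 0 against 2.40 to 2.56 in the other controls. That control was not alone, since Hspa1a was also at 0 with 1% and 100% acetophenone in litter 3. It was at 0 with 100% acetophenone in litter 2 as well.

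The responses to 100% TMT and 100% acetophenone differed, by the interaction test of edgeR within litters, for Hspa4l (log2 difference 2.79) and Hspa9 (2.14). The edgeR adjusted p was 0.0484 for both, near the threshold. No member passed with DESeq2 size factors, with GC and length corrected, or without any single acetophenone litter. Odor and experiment cannot be told apart in this test.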

How the results depend on the processing

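Counts are members past an adjusted p of 0.05. At 100% TMT without the litter block the count of 0 became 6 with DESeq2 and 6 with the replicate block. Within litters the 6 became 13 with DESeq2, 3 with only the libraries compared in the fit (Hsph1, Dnajc5 and Dnajc21 no longer passed), 0 with no replicate block, and 0 to 6 when 1 litter was left out. All genes past the threshold went from 314 to 1373 with DESeq2, 559 with no filter, 29 with only the libraries compared, 0 without the block, and 179, 1, 0 and 17 without litters 1 to 4. With DESeq2 within litters, the 0 became 2 at 1% TMT and 1 between the TMT doses. For the difference of the responses, the 0 without the block became 2 with it. These 2 within litters became 4 with DESeq2, 0 with DESeq2 size factors, 0 with GC and length corrected, 0 with no replicate block, and 0 to 3 when 1 litter was left out. The acetophenone counts stayed at 0 in every setting run, blocked or not. Of the log2 fold changes, 2 changed sign: Dnajc21 with 100% acetophenone, at -0.51 to 0.06 when 1 library was left out, and Dnaja2 with 1% TMT within litters, at -0.15 with GC and length corrected. The cause was not tested. Of the other log2 values, 598 kept direction and side of the threshold, 45 lost and 17 gained significance. Depth limits Hspa13, Hspa1a and Hspa1b.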
